A study of Homo sapiens with 4 samples.

Results

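The 9 keratin genes described here are KRT7, KRT8, KRT10, KRT15, KRT18, KRT19, KRT23, KRT80 and KRT81, the type I and type II keratins expressed in MDA-MB-231 cells, out of 35993 genes in the expression table. They were chosen by their expression in these libraries, and by mean level they are the top 9 of the 55 keratin genes in the table. The levels are therefore a description. KRT10 (mean of 4.70 TPM, a level scaled by transcript length and library size) lies just inside this order, and KRT34 (3.01 TPM) and KRT86 (1.82 TPM) lie just outside it. By name, 5 members are type I keratins (KRT10, KRT15, KRT18, KRT19 and KRT23) and 4 are type II keratins (KRT7, KRT8, KRT80 and KRT81). All 9 passed the filter used for the tests, a mean of at least 10 counts.

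MDA-MB-231 is an established human breast cancer line with mesenchymal features, of the triple-negative kind. The cells were transfected with an siRNA against CTGF (siCTGF) or a control siRNA (siControl). They were then given 50 µM kahweol, a diterpene from coffee, for 48 h or left untreated. The study's text and its figure legend give different times for kahweol, and the 48 h is that of the legend. Its methods name serum-free medium for the time between transfection and kahweol. The 4 conditions were siCTGF with kahweol, siControl with kahweol, siCTGF untreated and siControl untreated, with 1 RNA-Seq library each. All 4 libraries thus carried a transfected siRNA, and none came from cells without transfection. Only 1 siRNA sequence against CTGF is described in the study's methods, so a CTGF-dependent effect and an off-target effect of that siRNA cannot be told apart. Kahweol was dissolved in DMSO and no vehicle is named for the untreated cells, so kahweol and its solvent cannot be told apart either. With 1 library per condition no spread between cultures is known. Values in parentheses after a fold change are the lower and upper bounds of its 95% counting interval, which covers counting error only.

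Keratins are the intermediate filament proteins of epithelial cells. A type I and a type II keratin pair along a central coiled-coil rod, and the pairs assemble into filaments that run from the nucleus to desmosomes and hemidesmosomes, the junctions with neighbouring cells and with the basement membrane. KRT8 and KRT18 form the pair found in all simple epithelia, KRT7 and KRT19 are added in ductal and glandular epithelia such as the breast, and other pairs mark basal layers, the upper epidermis or the hair. Cells with mesenchymal features usually hold vimentin filaments beside or in place of keratins.

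The coding sequence at the end of the rod holds a motif that most members share. The stretch is given for 4 type I keratins: KRT18 and KRT19, the most abundant of them, and KRT15 and KRT23, whose levels differed most between libraries. Capitals mark the 21 bases that encode the conserved motif at the end of the helix, with the general form TYxxLLx, which was found in every member but KRT80. Sequences are from GENCODE 29 transcripts (GRCh38), run 5′ to 3′ on the coding strand, and each lies within a single coding exon.
KRT18: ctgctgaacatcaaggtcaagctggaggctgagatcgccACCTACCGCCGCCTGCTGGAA
KRT19: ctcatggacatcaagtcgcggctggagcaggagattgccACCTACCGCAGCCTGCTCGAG
KRT15: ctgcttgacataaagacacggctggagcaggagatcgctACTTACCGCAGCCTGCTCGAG
KRT23: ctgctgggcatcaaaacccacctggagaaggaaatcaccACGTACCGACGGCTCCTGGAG
The stretches lie at chr12:52952266-52952325 on the plus strand (KRT18) and, on the minus strand, at chr17:41523791-41523850 (KRT19), chr17:41515486-41515545 (KRT15) and chr17:40925368-40925427 (KRT23). Over the whole aligned coding sequence KRT7 and KRT8 were 65.6% identical, KRT15 and KRT19 62.2%, and KRT8 and its partner KRT18 45.2%.

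Reads of the length used can tell nearly all members apart. Among windows of 100 nt along the transcript, none of KRT7, KRT10, KRT15, KRT18, KRT19, KRT23 or KRT80 was shared with a transcript of another gene. For KRT8 7.56% of the windows were shared, mostly with its processed pseudogene KRT8P3. KRT81, a hair cortex keratin, was the exception, with 29.4% of its windows shared with KRT86, its near copy on the opposite strand. The coding sequences of both genes were 89.6% identical. KRT81 values are therefore uncertain where reads could be assigned to either gene, although KRT86 held at most 16.6% as many counts as KRT81 in any library.

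In the coordinates of the files (GRCh37), the members lie in the 2 keratin clusters, with KRT18, the type I keratin encoded among the type II genes, beside its partner. On chromosome 12 the order was KRT80 (chr12:52562780-52585798), KRT7 (chr12:52627027-52642705), KRT81 (chr12:52679697-52685318), KRT8 (chr12:53290975-53343644) and KRT18 (chr12:53342655-53346690). On chromosome 17 it was KRT10 (chr17:38974369-38978866), KRT23 (chr17:39078952-39093898), KRT15 (chr17:39669997-39675142) and KRT19 (chr17:39679869-39684560), the last pair being 4726 bp apart. The spans of KRT8 and KRT18 overlap by 990 bp on opposite strands, that of KRT10 overlaps TMEM99 by 3470 bp on opposite strands, and that of KRT81 lies wholly within KRT86. The kit marks the strand, but the strand setting of the counting is not given in the sources used here, so reads of overlapping genes may have been split between them.

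The 4 libraries held 44781516 to 59129784 counts. CTGF (CCN2), the siRNA target, was at 22.5 TPM in siCTGF cells against 140.4 TPM in siControl cells with kahweol, and at 53.9 TPM in siCTGF cells against 140.2 TPM in siControl cells without it. The log2 fold changes were -2.55 (-2.67, -2.44) and -1.32 (-1.40, -1.24), so the target was lower in both pairs of libraries. Markers of other cell types were low. Of 17 markers of skin differentiation in the table, 8 had no read in any library, and their summed level of 4.58 to 5.55 TPM was mostly KRT10 itself. The summed level of 6 endothelial markers was 1.05 to 3.01 TPM and that of 8 fibroblast markers 4.24 to 6.18 TPM. The 10 leukocyte markers summed to 43.6 to 60.5 TPM, nearly all of it CD68, while CD3D and CD3E were near 0.

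Keratin transcripts were abundant in this line. KRT18, the type I keratin of simple epithelia, was the highest member in each library, at 477 TPM in siCTGF and 478 TPM in siControl cells with kahweol, and at 464 TPM in siCTGF and 473 TPM in siControl cells without it. It ranked between 199th and 243rd of all genes. KRT8, its type II partner, was at 273 TPM (siCTGF) and 329.8 TPM (siControl) with kahweol and at 376 TPM (siCTGF) and 414 TPM (siControl) in the untreated cells. KRT8 was lowest in the siCTGF cells given kahweol, and KRT18 was nearly level across the 4 libraries on this scale.

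KRT19, the smallest keratin, which lacks most of the tail domain, was at 119 TPM in siCTGF and 149.6 TPM in siControl cells with kahweol, against 349.6 TPM in siCTGF and 464 TPM in siControl untreated cells. KRT7, a type II keratin of glandular epithelia, was at 153 TPM (siCTGF) and 154 TPM (siControl) with kahweol, against 357 TPM (siCTGF) and 401 TPM (siControl) in the untreated cells. Both libraries with kahweol lay far below both untreated ones for either gene. In the siControl untreated library KRT18, KRT19, KRT8 and KRT7 were between 401 and 473 TPM, whereas with kahweol KRT18 and KRT8 stood well above the other two.

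The remaining 5 members were at least an order of magnitude lower in the siControl untreated cells. KRT81 was at 10.7 TPM (siCTGF) and 14.6 TPM (siControl) with kahweol and at 13.3 TPM (siCTGF) and 26.4 TPM (siControl) in the untreated cells. KRT80, a type II keratin found near desmosomes, was at 4.07 TPM (siCTGF) and 10.8 TPM (siControl) with kahweol and at 13.8 TPM (siCTGF) and 29.5 TPM (siControl) untreated. KRT15, a type I keratin of basal keratinocytes and hair follicle stem cells, was at 2.75 TPM (siCTGF) and 9.28 TPM (siControl) with kahweol and at 9.28 TPM (siCTGF) and 26.5 TPM (siControl) untreated. In KRT15 and KRT80 the siControl cells with kahweol and the siCTGF cells without it were close to each other, the siControl untreated cells were highest and the siCTGF cells with kahweol lowest. KRT23, a divergent type I keratin known to be induced by histone deacetylase inhibitors in pancreatic cancer cells, was at 0.171 TPM (siCTGF) and 0.656 TPM (siControl) with kahweol and at 12.6 TPM (siCTGF) and 16.5 TPM (siControl) untreated. KRT10, a keratin of the upper epidermis, was at 4.42 TPM (siCTGF) and 4.19 TPM (siControl) with kahweol and at 5.16 TPM (siCTGF) and 5.03 TPM (siControl) untreated. The ranges of KRT81, KRT80, KRT15 and KRT23 over the libraries overlapped, so their order among themselves depended on the library, as did that of KRT8, KRT19 and KRT7. The 4 abundant members did not overlap with the 5 low ones in any library.

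**Figure D1:**
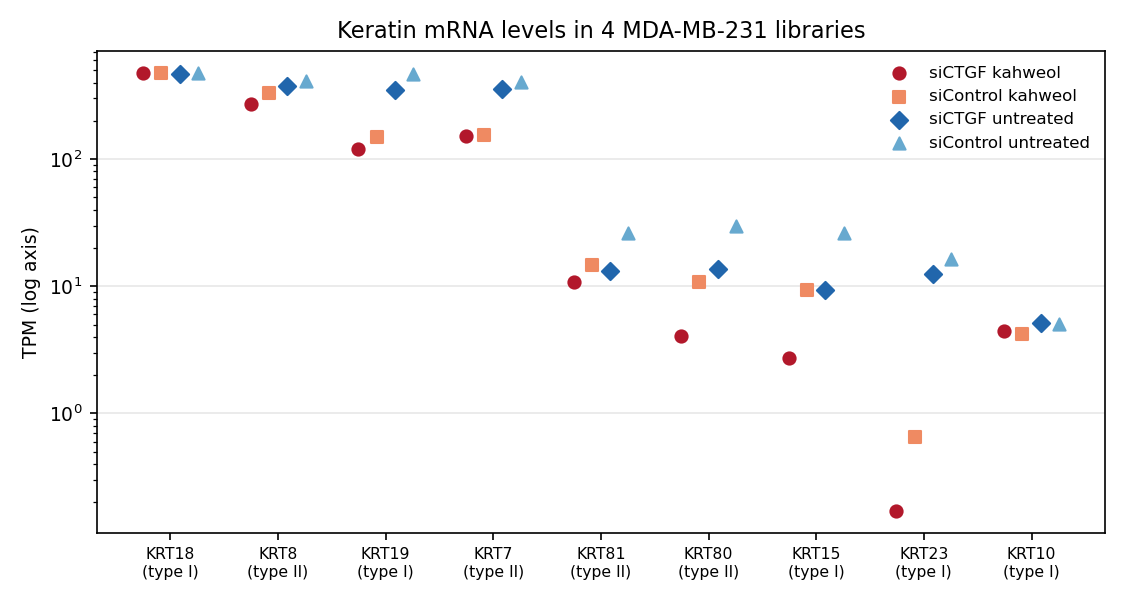
Level of each of the 9 keratins in TPM (log axis), 1 point per library, with genes ordered by mean level. Both points with kahweol lie below both untreated points for KRT8, KRT19, KRT7, KRT80, KRT23 and KRT10, and KRT23 spans 0.171 to 16.5 TPM. In CPM the KRT10 values overlap. On the log2(TPM + 1) scale the median gene is also lower with kahweol, by -0.18 in siCTGF and -0.17 in siControl cells. How many of all genes separate in this way was not counted.

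In TPM, 7 of the 9 members were highest in the siControl untreated cells and lowest in the siCTGF cells with kahweol, an order that 24.3% of the 16599 genes tested showed. The exceptions were KRT18 and KRT10. On the CPM scale used for the comparisons below, KRT7 was a further exception, and 6 members and 13.5% of the genes showed this order. A bulk library does not tell whether fewer cells expressed a keratin or each cell held less of its RNA. The 9 members made up 99.3 to 99.6% of all keratin transcripts. The summed keratin level was 1051 TPM in siCTGF and 1156 TPM in siControl cells with kahweol, against 1611 TPM in siCTGF and 1869 TPM in siControl untreated cells. For comparison, VIM, the vimentin of mesenchymal cells, was at 2501 TPM (siCTGF) and 2082 TPM (siControl) with kahweol and at 2819 TPM (siCTGF) and 2750.4 TPM (siControl) untreated, more than all keratins together in every library.

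The composition of the keratin pool differed between kahweol and untreated cells. KRT8 and KRT18 together made up 71.4% of it in siCTGF and 69.9% in siControl cells with kahweol, against 52.1% in siCTGF and 47.4% in siControl untreated cells. KRT7 and KRT19 made up 25.9% in siCTGF and 26.3% in siControl cells with kahweol, against 43.8% in siCTGF and 46.3% in siControl untreated cells. In TPM, the sum of KRT7 and KRT19 was 273 (siCTGF) and 304 (siControl) with kahweol against 706 (siCTGF) and 866 (siControl) untreated, and the sum of KRT8 and KRT18 was 750.1 (siCTGF) and 808 (siControl) with kahweol against 839.7 (siCTGF) and 887 (siControl) untreated. The ratio of KRT18 to KRT8 was 1.75 in siCTGF and 1.45 in siControl cells with kahweol, and 1.24 in siCTGF and 1.14 in siControl untreated cells. The ratio of all type I to all type II keratin transcripts was 1.37 in siCTGF and 1.26 in siControl cells with kahweol, and 1.11 and 1.13 in the same cells untreated. These shares are descriptions, without a test.

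**Figure D2:**
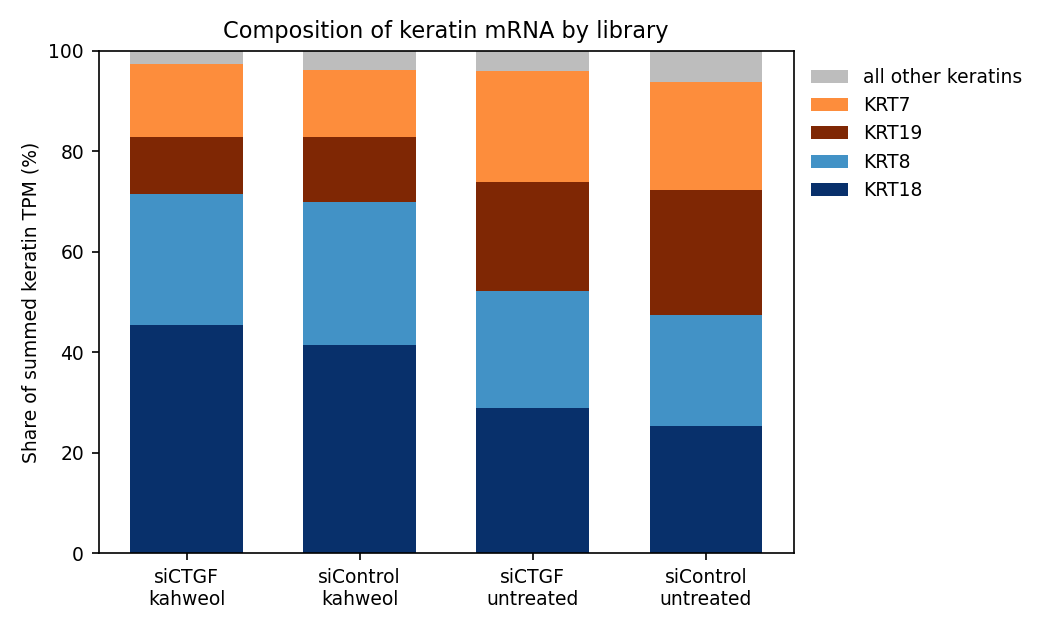
Share of the summed keratin TPM taken by KRT18, KRT8, KRT19, KRT7 and all other keratins in each library. KRT8 and KRT18 together reach 71.4 and 69.9% in both libraries with kahweol, against 52.1 and 47.4% in the untreated ones.

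The effect of kahweol on the keratins was then compared with that on all genes, by counts scaled to library size (CPM, with TMM factors) and an edgeR quasi-likelihood fit over the 4 libraries with the siRNA as a covariate. In this fit 2 libraries stand on each side, 1 residual degree of freedom is left, and any interaction of siRNA and kahweol counts as noise. Past an adjusted p of 0.05, 5 members were lower with kahweol (KRT7, KRT15, KRT19, KRT23 and KRT80) and 1 was higher (KRT18). Kahweol changed a large part of the transcriptome: 23.6% of the 16599 genes tested were lower, 22.9% were higher and 46.5% were either. KRT8, KRT10 and KRT81 did not pass the threshold. Since the members were selected with these results known, the counts describe the group and are no test of it.

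KRT23 showed the largest difference of the members. It had 11 counts (0.248 CPM) in siCTGF and 36 counts (0.834 CPM) in siControl cells with kahweol, against 759 counts (14.0 CPM) in siCTGF and 1083 counts (17.3 CPM) in siControl untreated cells. The log2 fold change was -5.62 (-7.15, -4.56) in siCTGF cells and -4.31 (-5.14, -3.70) in siControl cells, which is 49.0 and 19.9-fold lower. In the fit it was -4.92 (SE 0.32, adjusted p = 7.12e-05), the 39th lowest of all genes tested. Its level with kahweol rests on few reads, as the wide intervals show.

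The keratins of glandular epithelia were lower by about a factor of 2 or more. KRT19 was at 100.2 CPM in siCTGF and 118 CPM in siControl cells with kahweol, against 245 CPM in siCTGF and 313 CPM in siControl untreated cells. Its log2 fold change was -1.29 (-1.36, -1.22) in siCTGF and -1.40 (-1.47, -1.34) in siControl cells, and -1.35 in the fit (SE 0.08, adjusted p = 5.62e-05). KRT7 was at 150.3 CPM (siCTGF) and 142 CPM (siControl) with kahweol against 292 CPM (siCTGF) and 316 CPM (siControl) in the untreated cells. Its log2 fold changes were -0.96 (-1.02, -0.90) in siCTGF and -1.15 (-1.21, -1.09) in siControl cells, and -1.06 in the fit (SE 0.08, adjusted p = 9.48e-05). For both genes neither library with kahweol reached the lower of the untreated ones.

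KRT15 and KRT80 were lower with kahweol under both siRNAs. KRT15 was at 2.86 CPM in siCTGF and 9.03 CPM in siControl cells with kahweol, against 8.02 CPM in siCTGF and 22.0 CPM in siControl untreated cells. KRT80 was at 9.59 CPM (siCTGF) and 24.0 CPM (siControl) with kahweol against 26.9 CPM (siCTGF) and 55.6 CPM (siControl) untreated. The log2 fold changes of KRT15 were -1.47 (-1.90, -1.07) in siCTGF and -1.28 (-1.52, -1.05) in siControl cells, with -1.38 in the fit (SE 0.16, adjusted p = 0.0004). Without the siRNA term the KRT15 difference was -1.34 and no longer passed (adjusted p = 0.098). For KRT80 they were -1.49 (-1.72, -1.27) in siCTGF and -1.21 (-1.36, -1.07) in siControl cells, with -1.34 in the fit (SE 0.11, adjusted p = 0.00012). Within each siRNA the difference was clear, but across siRNAs the KRT15 levels of kahweol and untreated cells overlapped.

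The pair of simple epithelia differed less. KRT18 was at 408 CPM (siCTGF) and 384 CPM (siControl) with kahweol against 331 CPM (siCTGF) and 324 CPM (siControl) in the untreated cells, with log2 fold changes of 0.30 (0.26, 0.34) in siCTGF and 0.25 (0.20, 0.29) in siControl cells. The fit gave 0.27 (SE 0.07, adjusted p = 0.0115). The size of this difference depends on the scaling, since the median gene shifts by -0.15 when counts are divided by their totals and by -0.17 to -0.18 in TPM. KRT18 was then higher by 0.15 in siCTGF and 0.11 in siControl cells on total counts, and by 0.04 and 0.02 in the same cells on the log2(TPM + 1) scale. KRT8 was at 300.0 CPM (siCTGF) and 342 CPM (siControl) with kahweol against 342 CPM (siCTGF) and 363 CPM (siControl) untreated, with log2 fold changes of -0.19 (-0.24, -0.14) in siCTGF and -0.09 (-0.13, -0.05) in siControl cells and an adjusted p of 0.137 in the fit. On the log2(TPM + 1) scale the KRT8 differences were -0.46 in siCTGF and -0.33 in siControl cells.

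KRT81 and KRT10 did not pass the test for kahweol. KRT81 was at 12.5 CPM in siCTGF and 16.1 CPM in siControl cells with kahweol, against 12.9 CPM in siCTGF and 24.7 CPM in siControl untreated cells. Its log2 fold change was -0.04 (-0.28, 0.19) in siCTGF and -0.62 (-0.81, -0.44) in siControl cells, with -0.34 in the fit (SE 0.16, adjusted p = 0.118). KRT10 was at 5.74 CPM (siCTGF) and 5.12 CPM (siControl) with kahweol against 5.58 CPM (siCTGF) and 5.23 CPM (siControl) untreated, with log2 fold changes of 0.04 (-0.30, 0.40) in siCTGF and -0.03 (-0.40, 0.31) in siControl cells. A difference of KRT10 smaller than about these intervals was not detectable at this depth.

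By the fold thresholds of the study, over 1.3 or under 0.7, 5 members were under 0.7 with kahweol in siCTGF cells, where 24.2% of all genes were under and 28.4% over. In siControl cells 6 members were under 0.7, where 26.3% of all genes were under and 28.1% over. No member was over 1.3 in either. The additional gene in siControl cells was KRT81. The median log2 fold change of the 9 members was -0.96 in siCTGF and -1.15 in siControl cells, against a median of all genes of -0.0035 and -0.02. With counts divided by their totals, 30.3% of all genes were under and 21.9% over in siCTGF cells, and 31.6% under and 22.0% over in siControl cells. On the log2(TPM + 1) scale the shares were 26.6% under and 13.6% over in siCTGF cells, and 27.3% under and 14.0% over in siControl cells.

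**Figure D3:**
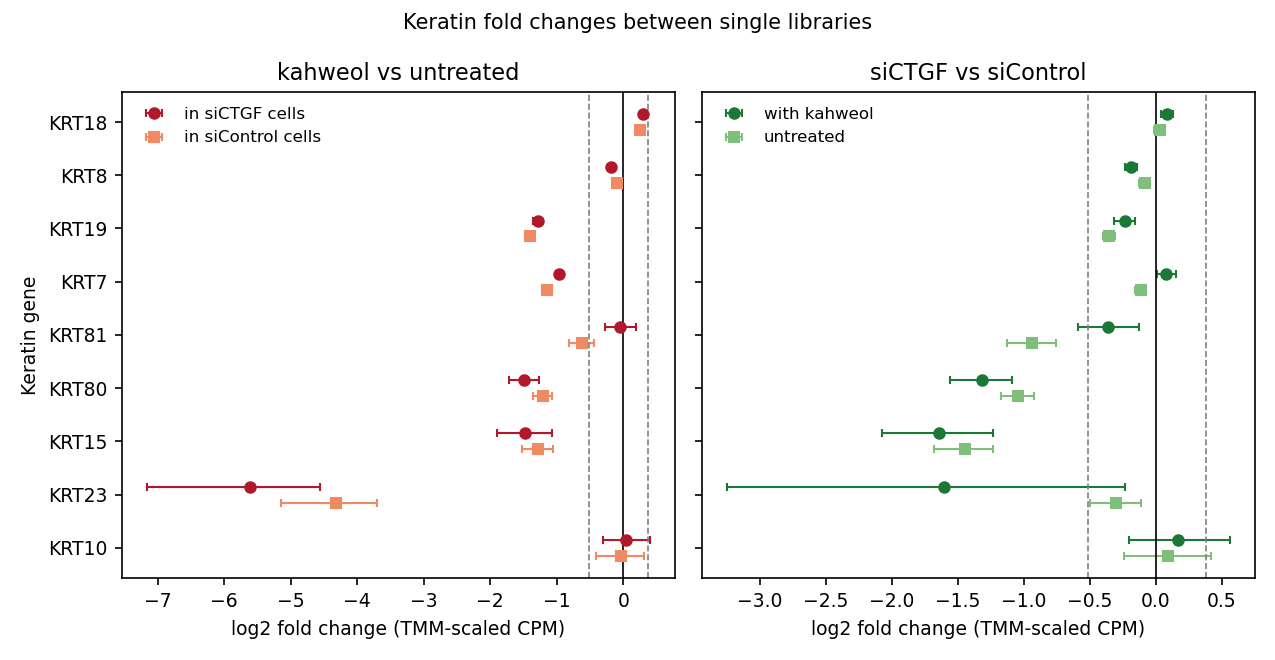
Log2 fold changes of TMM-scaled CPM for the 9 keratins, kahweol against untreated (left) and siCTGF against siControl (right). Bars are 95% counting intervals and dashed lines the 0.7 and 1.3 fold thresholds. KRT23 lies at -5.62 and -4.31 for kahweol, and KRT15 and KRT80 lie at -1.04 or lower in all 4 comparisons.

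For siCTGF, KRT15 and KRT80 passed in the fit among the members, both lower. Of the 16599 genes, 0.0602% were lower and 0.0663% higher in this fit (0.127% either, 21 genes), and the siRNA target CCN2 itself did not pass (log2 fold change -1.93, SE 0.25, adjusted p = 0.0589). The comparisons of siCTGF and of kahweol share libraries, so their values are not independent of each other.

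KRT15 was lower in siCTGF cells both with kahweol (2.86 CPM in siCTGF against 9.03 CPM in siControl) and without it (8.02 CPM against 22.0 CPM). The log2 fold changes were -1.65 (-2.08, -1.23) and -1.45 (-1.68, -1.23), and -1.55 in the fit (SE 0.16, adjusted p = 0.0394), the 112th lowest of all genes by size. KRT80 was at 9.59 CPM in siCTGF against 24.0 CPM in siControl cells with kahweol, and at 26.9 CPM against 55.6 CPM without it. Its log2 fold changes were -1.32 (-1.56, -1.09) and -1.04 (-1.17, -0.92), and -1.17 in the fit (SE 0.11, adjusted p = 0.0271). In CPM both siCTGF libraries were below both siControl libraries for KRT15, as they were for KRT81. How many of all genes separate in this way was not counted. In TPM the KRT15 levels of siCTGF untreated cells and of siControl cells with kahweol were both 9.28. For KRT80 the siCTGF untreated cells were slightly above the siControl cells with kahweol. Both calls were lost when the kahweol term was left out of the fit (adjusted p = 1.00 for each, with no gene called), although the log2 fold changes were then -1.51 for KRT15 and -1.12 for KRT80. Both calls were made under each of the other 5 settings tried.

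KRT81 was lower in siCTGF cells without kahweol, at 12.9 CPM against 24.7 CPM in siControl cells, with a log2 fold change of -0.94 (-1.13, -0.76). With kahweol it was at 12.5 CPM in siCTGF against 16.1 CPM in siControl cells, -0.36 (-0.59, -0.13). The siCTGF effect with kahweol minus that without it was 0.58 (0.28, 0.87), a difference beyond counting error that has no replicate check. The same difference was 0.19 (0.11, 0.28) for KRT7, 0.12 (0.02, 0.21) for KRT19, -0.10 (-0.16, -0.04) for KRT8 and -0.27 (-0.54, -0.01) for KRT80, and its interval included 0 for KRT10, KRT15, KRT18 and KRT23. How many of all genes show such a difference beyond counting error was not counted, so these values are not particular to keratins. For KRT81 the siCTGF fit gave -0.66 (SE 0.16, adjusted p = 0.231). The KRT81 level stood out in the siControl untreated library, and the other 3 libraries lay between 12.5 and 16.1 CPM.

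KRT23 was at 0.248 CPM in siCTGF against 0.834 CPM in siControl cells with kahweol, a log2 fold change of -1.60 (-3.25, -0.23) on 11 counts (siCTGF) and 36 counts (siControl). Without kahweol it was at 14.0 CPM in siCTGF against 17.3 CPM in siControl cells, -0.30 (-0.50, -0.11). It did not pass in the fit (adjusted p = 0.541), and the difference between both siCTGF effects was -1.30 (-2.69, 0.09). KRT19 was at 100.2 CPM in siCTGF against 118 CPM in siControl cells with kahweol and at 245 CPM against 313 CPM without it, with a log2 fold change of -0.24 (-0.32, -0.15) in the kahweol pair and -0.35 (-0.40, -0.31) in the untreated pair, and an adjusted p of 0.257.

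The other members differed little between the siRNAs. KRT7 had log2 fold changes of 0.08 (0.01, 0.15) with kahweol and -0.11 (-0.16, -0.07) without it. The value with kahweol was -0.0084 on the log2(TPM + 1) scale. KRT8 had -0.19 (-0.24, -0.14) with kahweol and -0.08 (-0.12, -0.04) without it. KRT18 had 0.09 (0.04, 0.13) with kahweol and 0.03 (-0.01, 0.07) without it, both slightly below 0 on the log2(TPM + 1) scale. KRT10 had 0.17 (-0.20, 0.56) with and 0.09 (-0.24, 0.42) without kahweol. None of these 4 passed in the fit, where the adjusted p was 0.581 for KRT8 and higher for KRT7, KRT10 and KRT18.

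By the fold thresholds, 3 members were under 0.7 in siCTGF cells with kahweol (KRT15, KRT23 and KRT80), where 7.83% of all genes were under and 14.7% over. KRT23 was no longer under on the log2(TPM + 1) scale (-0.50) or the log2(FPKM + 1) scale (-0.30), which leaves 2 members, beside 2.95% and 1.3% of all genes under. The 1 added on these scales exceeds the KRT23 levels of 0.171 TPM (siCTGF) and 0.656 TPM (siControl), which shrinks their difference. Without kahweol 3 were under (KRT15, KRT80 and KRT81), where 8.99% of all genes were under and 9.63% over. No member was over 1.3. The median log2 fold change of the members was -0.24 with kahweol and -0.30 without it, against 0.0040 and -0.0071 for all genes.

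The members fell into a few patterns across the 4 libraries. Likeness was measured by the Euclidean distance of centred log2 CPM, which is also small between genes that both vary little. KRT10 and KRT18 were closest (0.278), followed by KRT8 and KRT10 (0.314), KRT15 and KRT80 (0.369) and KRT7 and KRT19 (0.405). The partners KRT8 and KRT18 were at 0.462. KRT8, KRT10 and KRT18 ranged over only 0.28, 0.17 and 0.33 in log2 CPM. The counting intervals of KRT10 were wider than that, so the order of the pairs among these genes is not resolved. KRT15 and KRT80 lie on different chromosomes, whereas KRT15 and KRT19, neighbours on chromosome 17, were not among these closest pairs.

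Among 11747 protein-coding genes averaging at least 100 counts, the closest to KRT15 were KRT80 (0.369), the read-through gene DUS4L-BCAP29 (0.412) and SUSD3 (0.455). The closest to KRT80 were ITGB2 (0.204), SPARC (0.320) and ARTN (0.358). SPARC was at 3.71 TPM in siCTGF against 7.74 TPM in siControl cells with kahweol, and at 11.1 TPM against 20.2 TPM without it, the same order of libraries as KRT80. The closest to KRT23 were GPR15 (1.12), TNFSF15 (1.18) and ZBED2 (1.61). GPR15 had 6 counts (siCTGF) and 7 counts (siControl) with kahweol against 293 counts (siCTGF) and 266 counts (siControl) untreated. These likenesses rest on 4 libraries and are descriptions.

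Outside the members, 46 keratin genes were in the table. Of these, 9 had a mean count of at least 10, and of all 55 keratin genes 21 had no read in any library, among them KRT5 and KRT14, the pair of basal epithelia, and KRT1, the epidermal partner of KRT10. With kahweol 1 of the 9 was called higher and 2 lower, against 22.9% higher and 23.6% lower among all genes. With siCTGF none passed, where 0.127% of all genes did. These counts of calls are close to the shares of all genes. By the fold thresholds 7 of the 9 were under 0.7 with kahweol and 1 over 1.3, under each siRNA. Of all genes 24.2% were under and 28.4% over in siCTGF cells, and 26.3% and 28.1% in siControl cells. The median log2 fold change of the 9 was -1.30 in siCTGF and -1.66 in siControl cells. Several of these folds rest on few counts. With kahweol KRT79 had 17 counts in siCTGF and 0 in siControl cells, and KRT83 had 0 and 6 in the same cells. Like KRT20, they passed the filter on low counts only through the untreated cells. Their folds were low by that selection, so the 7 of 9 and the medians are descriptions that say nothing further. KRT16, a keratin induced in stressed and wounded epidermis, was at 1.17 TPM in siCTGF and 0.949 TPM in siControl cells with kahweol against 0.350 TPM (siCTGF) and 0.338 TPM (siControl) untreated (log2 fold change 1.86, SE 0.59, adjusted p = 0.035). It rose on 53 counts (siCTGF) and 39 counts (siControl) against 16 and 17 in the untreated cells. KRT34, a hair keratin, was at 1.84 TPM (siCTGF) and 1.16 TPM (siControl) with kahweol against 4.64 TPM (siCTGF) and 4.41 TPM (siControl) untreated (-1.37, SE 0.33, adjusted p = 0.0108). KRT20, a keratin of intestinal epithelium, had 0 counts in both libraries with kahweol against 28 counts in siCTGF and 24 counts in siControl untreated cells. With its level with kahweol set to 3 counts per library, KRT20 was 7.66-fold lower in siCTGF and 5.53-fold lower in siControl cells. These folds rest on that setting, leave out the counting error of the untreated cells and are no bounds. KRT20, 1 of the 2 called lower, passed the filter on low counts only through the untreated cells, so its call says nothing further. KRT86 did not pass (adjusted p = 0.781), nor did KRT17, KRT32, KRT79, KRT83 and KRT222.

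The proteins that anchor keratin filaments to junctions were examined as a further list. Of 22 desmosome and hemidesmosome genes, 17 were kept, of which 12 were lower with kahweol and 0 higher, against 23.6% lower and 22.9% higher among all genes. The log2 fold change was below 0 for each of the 17, with a median of -0.64 against -0.01 for all genes. The other 5 did not pass. At the hemidesmosome, ITGB4 and ITGA6, the integrin chains that bind laminin, were lower by log2 fold changes of -1.58 (SE 0.16, adjusted p = 0.000264) and -1.07 (SE 0.08, adjusted p = 9.17e-05). COL17A1, a transmembrane collagen of that junction, had -1.52 (SE 0.20, adjusted p = 0.000709). ITGA6 was at 46.0 TPM in siCTGF and 55.4 TPM in siControl cells with kahweol against 125 TPM (siCTGF) and 127 TPM (siControl) untreated. PLEC (plectin), which ties keratins to the integrins, was at 58.8 TPM (siCTGF) and 60.6 TPM (siControl) with kahweol against 106 TPM (siCTGF) and 139 TPM (siControl) untreated, and CD151, a tetraspanin partner of the laminin-binding integrins, at 139 TPM (siCTGF) and 133 TPM (siControl) against 251 TPM (siCTGF) and 252 TPM (siControl). At the desmosome, PKP3 and PKP2 (plakophilins) had log2 fold changes of -1.25 (SE 0.13, adjusted p = 0.000296) and -0.91 (SE 0.11, adjusted p = 0.000615). JUP, EVPL, PPL, DST and PERP were lower as well. With siCTGF none of the 17 passed, where 0.127% of all genes did.

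Of 16 other intermediate filament genes 11 were kept. With kahweol 6 were lower and 0 higher, against 23.6% lower and 22.9% higher among all genes. The lower ones were LMNB1 and LMNB2 (B-type lamins of the nuclear lamina), NES (nestin), GFAP, SYNM and SYNC. LMNB2 was at 67.2 TPM in siCTGF and 66.6 TPM in siControl cells with kahweol against 142 TPM (siCTGF) and 141 TPM (siControl) untreated (log2 fold change -0.83, SE 0.07, adjusted p = 0.000131). VIM (-0.04, adjusted p = 0.663) and LMNA (0.12, adjusted p = 0.242), the most abundant genes of the list, did not pass. With siCTGF none of the 11 passed, where 0.127% of all genes did.

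Of 28 transcription factors and binding proteins of keratins, 27 were kept. With kahweol 6 were higher and 8 lower, close to the shares of all genes (22.9% higher and 23.6% lower). The higher ones were KLF4 (log2 fold change 1.09), KLF5 (1.21), GRHL1 (1.34), OVOL1 (1.12), FOXA1 (2.11) and SFN (0.27), the first 5 of which are transcription factors of epithelial differentiation. The lower ones were EHF (-2.17), ELF3 (-1.01), GRHL2 (-0.83), ESRP2 (-1.68), TRADD (-1.19), TCHP (-0.45), HNRNPK (-0.21) and STUB1 (-1.10). EHF and ELF3 are ETS factors of epithelia, and ESRP2 is an epithelial splicing factor. EHF was at 5.08 TPM in siCTGF and 9.09 TPM in siControl cells with kahweol against 30.9 TPM (siCTGF) and 42.4 TPM (siControl) untreated (SE 0.12, adjusted p = 4.76e-05). KLF4 was at 52.5 TPM (siCTGF) and 33.6 TPM (siControl) with kahweol against 23.5 TPM (siCTGF) and 23.2 TPM (siControl) untreated (SE 0.15, adjusted p = 0.000982). The median of the list was -0.17, and with siCTGF none of the 27 passed, where 0.127% of all genes did.

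**Figure D4:**
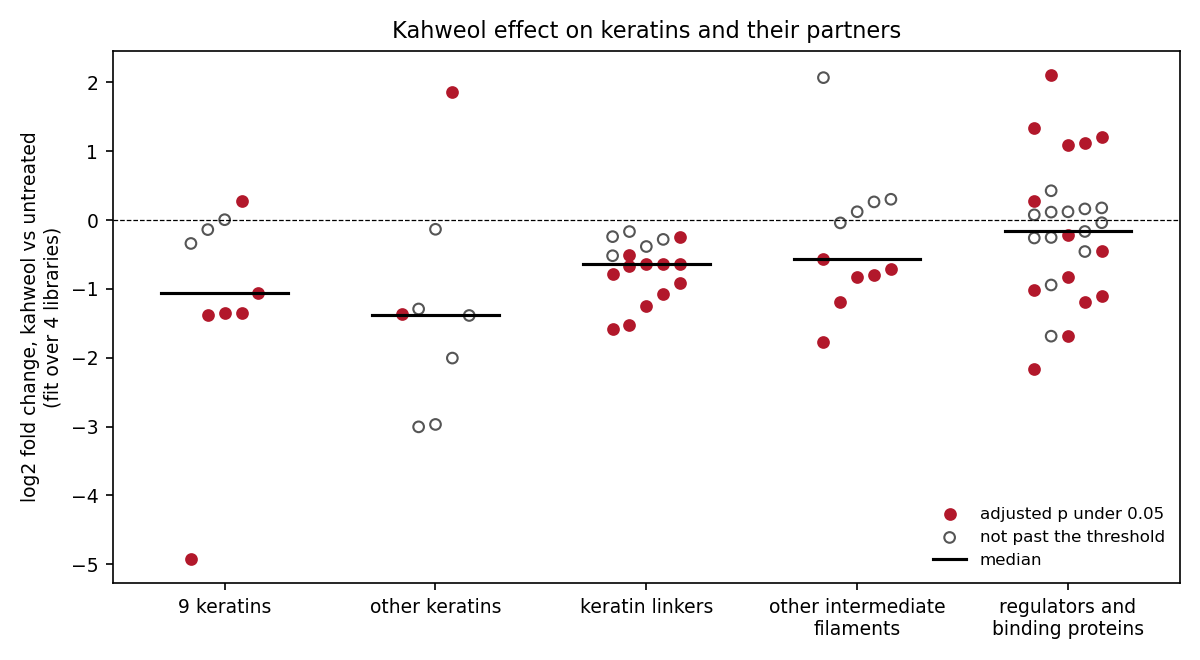
Log2 fold change of each kept gene, kahweol against untreated, in the edgeR fit over 4 libraries, for the 9 keratins, the other keratins and 3 lists of partner genes. Filled points passed an adjusted p of 0.05 and bars are medians. All 17 keratin linkers lie below 0. KRT20, with 0 counts in both libraries with kahweol, is counted in the median of the other keratins but not drawn.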

How the data were processed

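Total RNA-Seq of 4 MDA-MB-231 libraries (rRNA-depleted, stranded kit) was used. The RNA kit is RNeasy in the labels and another one in the study's methods. The submitters' processing notes name Trimmomatic 0.38, FastQC 0.11.7, HISAT2 2.1.0, Bowtie2 2.3.4.1, StringTie 2.1.3b and GRCh37.p13. The deposited read counts per gene are whole numbers made by the authors without normalization. FPKM and TPM were made by the authors with StringTie, as was the deposited coverage signal, which served only to check the counts (104 to 106 aligned bases per count, so that 2 counts were taken as 1 fragment).

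Counts were scaled with TMM in edgeR 4.0.16 (R 4.3.3), with a prior count of 2, over 16599 genes (mean count 10 or more). Pairs of libraries were compared with Clopper-Pearson counting intervals (95%). The quasi-likelihood fit used all 4 libraries with Benjamini-Hochberg correction over all genes. DESeq2 1.42.0 and limma 3.58.1 were among the alternatives (32 in all), which also changed the scaling, the filter on counts and the terms of the fit. At the depths used, intervals are narrow for abundant genes and wide for KRT10 and KRT23.

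Named genes were drawn from the members, CCN2, VIM and keratins with a mean count of at least 10. They were also drawn from the 4 most abundant and all called genes of each list, and the 3 nearest genes of the 3 most variable members. Not all of these are named in the results. Of those left out, YWHAE, YWHAZ and DNAJB6 (keratin-binding proteins) did not pass for kahweol. CDH5 (endothelial) was called lower (log2 fold change -3.03, adjusted p = 0.00308), on 9 counts (siCTGF) and 8 counts (siControl) with kahweol. Other genes named as absent were chosen after their values were seen. The members and the lists were chosen with earlier results of these data known. Sequences of some members are not reported here.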

Additional observations from a re-analysis of the deposited data

Results flagged for a closer look

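KRT7 differed between siCTGF and siControl cells in opposite directions with kahweol (log2 fold change 0.0796) and without it (-0.113). The siCTGF effect with kahweol minus that without it was 0.19 (0.11 to 0.28, counting error only). With 1 library per condition the difference was not tested across cultures. The value with kahweol was -0.0084 on the log2(TPM + 1) scale, so the opposite signs do not hold there.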

How the results depend on the processing

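No paired analysis was possible because the labels give no replicate numbers and each condition has 1 library. Leaving out a library was not run, since it leaves the fit no residual degree of freedom and a pair no partner. With no kahweol term in the siCTGF fit, 0 members and 0 genes were called (before correction, 25 genes were higher and 22 lower past a p of 0.05), and KRT15 was also no longer called for kahweol when the siRNA term was left out (log2 fold change -1.34, adjusted p = 0.098). The other 5 settings kept KRT15 and KRT80 for siCTGF and the same 6 members for kahweol. The siCTGF fit called 11 genes higher and 10 lower, against 68 and 60 with DESeq2, 31 and 28 with limma-voom, 35 and 40 with DESeq2 size factors, 20 and 23 at a mean count of at least 50, and 10 and 13 without a filter. The members' median moved for siCTGF with kahweol to -0.32 in TPM, for kahweol in siControl cells to -1.28 on total counts and -1.37 in TPM, and for kahweol in siCTGF cells to -1.11 on total counts, -1.21 in TPM and -1.13 in FPKM. Of 216 single fold changes 42 moved beyond their counting interval, all on total counts (8), TPM (21) or FPKM (13), and none of those called changed sign. At folds over 2 or under 0.5, 4 members were under with kahweol in siCTGF and 5 in siControl cells (10.8% and 13.3% of all genes), and 3 and 2 were under with siCTGF, with and without kahweol (2.83% and 2.98%). Depth limits KRT23 with kahweol and KRT10.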

Other observations

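Markers of epithelial and mesenchymal states were called in both directions with kahweol, where 23.6% of all genes were lower and 22.9% higher. Of 16 luminal markers 15 were kept, of which 7 were lower and 2 higher (KRT18 and FOXA1). The lower ones were KRT19, EPCAM, GRHL2, CLDN3, CLDN4, CLDN7 and ERBB2. CLDN7, a tight junction claudin, was at 16.6 TPM in siCTGF and 15.4 TPM in siControl cells with kahweol against 45.8 TPM (siCTGF) and 46.6 TPM (siControl) untreated (log2 fold change -1.28, SE 0.11, adjusted p = 0.000126). Of 6 basal markers kept, EGFR, CDH3 (P-cadherin) and ITGB4 were lower and 0 higher, beside the same shares of all genes. LAMB3, by far the most abundant of the 6, did not pass (log2 fold change 0.10, adjusted p = 0.265), nor did KRT17 and TP63. It was at 353 TPM (siCTGF) and 420 TPM (siControl) with kahweol against 377 TPM (siCTGF) and 490 TPM (siControl) untreated.

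Of 9 mesenchymal markers kept, 3 were higher with kahweol and 3 lower, not far from those shares with so few genes. SNAI1, a repressor of epithelial genes, was at 19.0 TPM in siCTGF and 20.4 TPM in siControl cells with kahweol against 1.94 TPM (siCTGF) and 3.41 TPM (siControl) untreated (log2 fold change 3.16, SE 0.21, adjusted p = 7.12e-05). ZEB1 (0.61) and ZEB2 (0.82) were higher as well, while AXL (-0.71), SPARC (-1.23) and FN1 (-0.25) were lower. With siCTGF no gene of these 3 lists passed, where 0.127% of all genes did, so the absence of calls in lists this short says little.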
